A study of Homo sapiens with 42 samples.

Results

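K562 is a human cell line from chronic myeloid leukaemia in blast crisis that carries the BCR-ABL1 fusion kinase. ANO1, BEST3, ESPN, A2ML1 and A2M are 5 genes that untreated K562 cells hardly transcribe, taken here by symbol from the 58243 gene IDs of the count tables. They were chosen by their low CTRL counts and their rise after imatinib in earlier results of these data. Their response to imatinib is therefore given as a description without a test, and tests are kept for the other treatments, for related genes and for the genes beside them. The label "switched on" held in poly(A) mRNA for 4 of the 5: ANO1, BEST3, ESPN and A2ML1. It did not hold there for A2M, which stayed between 0 and 4 read pairs in every mRNA library of the imatinib course. In nuclear RNA A2M rose. With so few mRNA reads, and no test between the fractions, a difference between them is not shown for A2M.

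Short-read RNA-seq had been made from 42 libraries in 14 groups of 3 biological replicates, 27 of poly(A) mRNA and 15 of rRNA-depleted nuclear RNA. All groups were K562 cells of the same line: untreated cells (CTRL); imatinib (IM), an inhibitor of the ABL kinase, at 1 uM for 1, 6 or 18 h; JTE-607 (JTE), an inhibitor of the nuclease that cuts pre-mRNA 3′ ends, at 5 uM for 1, 6 or 18 h; and 110 mM KCl, a hyperosmotic shock, for 1 or 3 h. Nuclear RNA was sampled from CTRL and after IM for 1 and 18 h, JTE for 1 h and KCl for 1 h. A single cell line limits the groups to 1 genetic background, and bulk counts cannot tell more cells with a transcript from more transcript per cell. The study asked how chemotherapy alters transcriptional readthrough and splicing.

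The 5 genes are known mainly from other tissues. ANO1 (anoctamin 1, also TMEM16A) is a calcium-activated chloride channel of epithelia, smooth muscle and interstitial cells of Cajal. BEST3 belongs to the bestrophins, a separate family of calcium-activated anion channels. ESPN (espin) bundles actin filaments in the stereocilia of hair cells and in microvilli. A2M (alpha-2-macroglobulin) is a protease inhibitor of plasma made mainly by the liver, which traps proteases and is cleared through the receptor LRP1, and A2ML1 is its epidermal relative.

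ANO1 (ENSG00000131620) occupies chromosome 11 from 70078302 to 70189528 on the plus strand of hg38 in the count tables, with 6021 exonic bases. BEST3 (ENSG00000127325) lies on chromosome 12 from 69643360 to 69699476 on the minus strand, with 6863 exonic bases. ESPN (ENSG00000187017) runs from 6424788 to 6461370 on the plus strand of chromosome 1, with 6943 exonic bases. A2ML1 (ENSG00000166535) and A2M (ENSG00000175899) are both on chromosome 12, from 8822472 to 8887001 on the plus strand and from 9067664 to 9116229 on the minus strand, with 7303 and 6384 exonic bases. GENCODE 44 starts ANO1 92395 bases earlier than the count tables do, so reads of the first exons of its longer transcripts are not in the ANO1 counts.

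The sequence just before a start is shown for 4 of the genes, as the sequence context of their starts. Each line gives genomic bases of hg38, 5′ to 3′ on the gene's strand. Up to 250 bases were taken before the start and cut to the longest stretch outside any exon of GENCODE 44. Capitals mark letters that match a searched motif on either strand. The GATA motif was searched as AGATAA and, for its other form, as TGATAA. The GC box, bound by factors of the Sp family, was GGGCGG. For the related CACCC box, bound by Krüppel-like factors, the letters were CCACCC. The TATA box, the core element that places some starts, was TATAAA. The STAT motif was TTCNNNGAA. The ANO1 and A2ML1 lines come before the starts that RefSeq gives (GRCh38.p14). The ESPN and A2M lines come before the starts in the count tables.
ANO1 at the RefSeq start, chr11:69985657-69985875, plus strand: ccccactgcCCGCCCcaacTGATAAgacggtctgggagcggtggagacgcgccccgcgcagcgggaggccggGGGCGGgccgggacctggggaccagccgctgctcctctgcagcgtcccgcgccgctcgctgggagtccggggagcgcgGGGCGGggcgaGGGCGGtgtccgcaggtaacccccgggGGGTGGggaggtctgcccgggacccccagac
ESPN, chr1:6424671-6424775, plus strand: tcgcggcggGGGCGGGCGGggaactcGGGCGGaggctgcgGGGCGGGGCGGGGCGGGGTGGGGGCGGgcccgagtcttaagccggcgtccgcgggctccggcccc
A2ML1 at the RefSeq start, chr12:8822371-8822620, plus strand: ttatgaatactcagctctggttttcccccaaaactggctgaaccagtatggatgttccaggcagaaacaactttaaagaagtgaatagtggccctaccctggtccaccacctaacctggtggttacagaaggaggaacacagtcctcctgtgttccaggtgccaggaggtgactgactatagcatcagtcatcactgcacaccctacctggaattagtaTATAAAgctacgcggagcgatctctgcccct
A2M, chr12:9116230-9116479, minus strand: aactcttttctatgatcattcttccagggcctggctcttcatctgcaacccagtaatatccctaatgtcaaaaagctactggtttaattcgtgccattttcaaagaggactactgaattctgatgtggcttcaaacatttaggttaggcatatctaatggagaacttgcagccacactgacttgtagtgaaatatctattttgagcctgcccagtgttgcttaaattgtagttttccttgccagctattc

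Only these 4 windows are described, so no comparison over the 5 genes is drawn. The 250 bases before ESPN were 70.8% G and C and held 7 GC boxes, some of them overlapping. Those before the RefSeq start of ANO1 were 78% G and C with 4 GC boxes, and those before A2M and the RefSeq start of A2ML1 had 40% and 49.2% and none. A GC box stood in 42.6% of 35116 RefSeq windows of the same length. A GATA motif was found 231 bases before the RefSeq start of ANO1 and 238 bases before a second RefSeq start of A2ML1 that is not shown, and 14.6% of all windows held either form. The ESPN window and that of the RefSeq start of ANO1 each held a CACCC box, as did 31.3% of all windows. A TATA box stood 31 bases before the A2ML1 start, and in 10.7% of all windows. None of the windows shown held the STAT letters, which 6.57% of all windows did.

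The libraries held between 16439848 and 62953314 assigned read pairs in mRNA and between 16175394 and 25103205 in nuclear RNA, so that a floor of 3 counts corresponded to 0.0477 to 0.182 and 0.12 to 0.185 counts per 1000000 assigned counts (CPM). Intervals and floors cover counting error only. The K562 identity list (7 genes, BCR, ABL1 and GATA1 among them) was detected in full in every library. The mRNA library of replicate 3 after 6 h of imatinib stood apart. On the axis from CTRL (0) to IM 18h (1) over 13784 genes it lay at 0.706, and replicates 1 and 2 of that group at 0.476 and 0.523. In nuclear RNA, replicate 1 after 18 h lay at 1.14, beyond replicates 2 and 3 at 0.896 and 0.968. The fold changes of the members are given with and without these libraries.

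In mRNA ANO1, BEST3 and A2ML1 had at most 8 counts in each library of CTRL and of 1 h of imatinib and ESPN at most 46, and all 4 lay far higher at 18 h. ESPN, the actin bundler, had the highest level. Its counts were 19, 23 and 19 in CTRL, 19, 46 and 23 after 1 h, 58, 81 and 735 after 6 h and 1836, 1043 and 692 after 18 h. The 18 h libraries lay far above all CTRL libraries, and the 6 h libraries already lay above them without overlap. The mean rose from 1.10 ± 0.09 CPM (SD, n = 3) to 65.5 ± 31.7 CPM, a log2 fold change of 5.85 (SE 0.90).

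BEST3, the anion channel, had counts of 3, 2 and 1 in CTRL, 3, 2 and 1 after 1 h, 15, 11 and 89 after 6 h and 201, 152 and 119 after 18 h. Its groups separated from CTRL at 6 h and were wide apart at 18 h. Means of 0.108 ± 0.054 and 8.67 ± 2.17 CPM gave a log2 fold change of 6.21 (SE 0.72) at 18 h.

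ANO1, the other chloride channel, had counts of 1, 0 and 1 in CTRL, 1, 1 and 1 after 1 h, 1, 2 and 53 after 6 h and 123, 114 and 118 after 18 h. Its replicates at 18 h were the closest of the 4 genes. With 2 reads in CTRL in all, the ratio of the pooled levels was 180, with a 95% counting interval from 49.6 to 1496.

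A2ML1, the epidermal protease inhibitor, had counts of 8, 5 and 4 in CTRL, 7, 4 and 5 after 1 h, 21, 6 and 78 after 6 h and 177, 128 and 94 after 18 h. Its mean went from 0.308 ± 0.113 to 7.33 ± 2.22 CPM, a log2 fold change of 4.51 (SE 0.69). A2M, the plasma inhibitor, had counts of 1, 2 and 2 in CTRL, 0, 1 and 0 after 1 h, 0, 3 and 1 after 6 h and 2, 3 and 4 after 18 h. CTRL and 18 h overlapped for A2M, the pooled ratio was 1.83 with a counting interval from 0.551 to 6.95, and the gene did not pass the filter on low counts in mRNA.

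**Figure D1:**
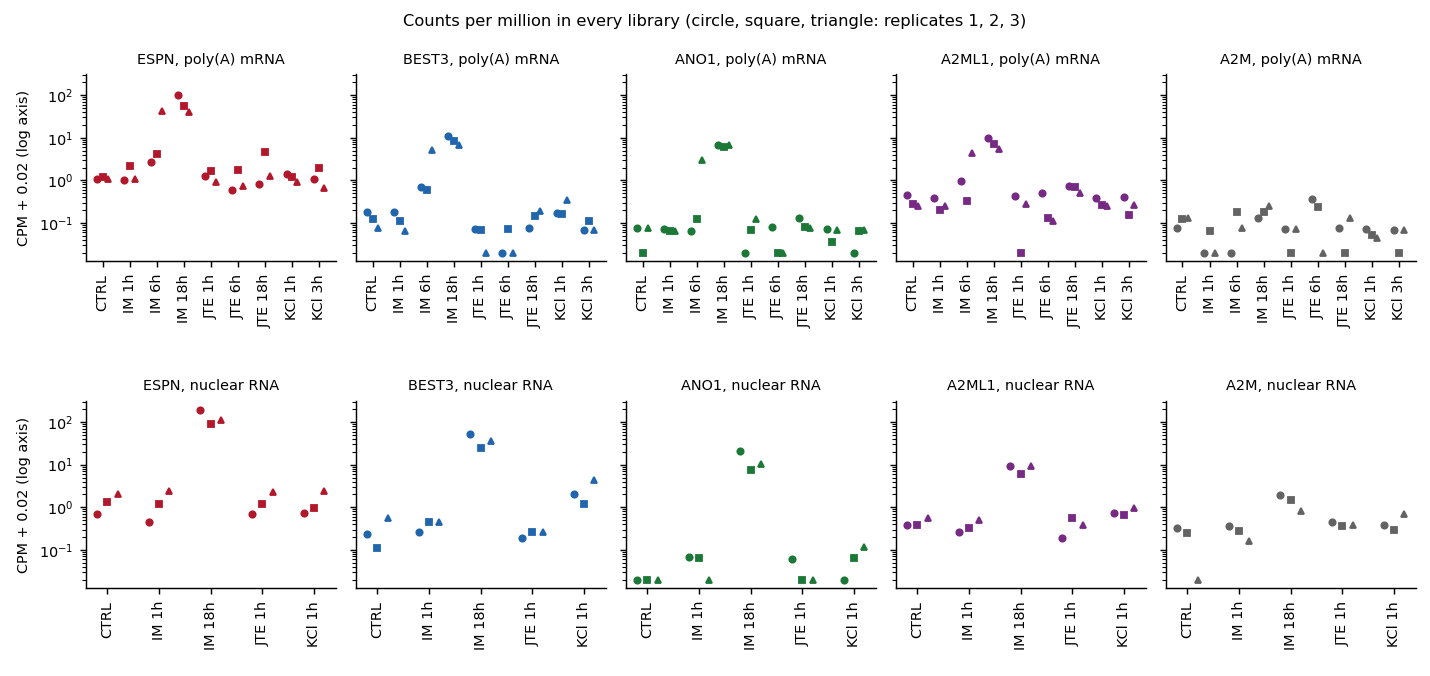
Each point is 1 library, plotted as CPM + 0.02 on a log axis for the 5 genes (columns) in the 9 mRNA groups (top) and the 5 nuclear groups (bottom). ESPN, BEST3, ANO1 and A2ML1 stand out at IM 18h in both fractions, A2M only in nuclear RNA, and BEST3 also at KCl 1h in nuclear RNA.

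Replicate 3 carried most of the 6 h level. ESPN was at 41.8 CPM there against 2.63 and 4.25 CPM in replicates 1 and 2, BEST3 at 5.06 against 0.680 and 0.577 CPM, ANO1 at 3.02 against 0.0453 and 0.105 CPM, and A2ML1 at 4.44 against 0.952 and 0.315 CPM. The log2 fold changes at 6 h were 3.81 for ESPN, 4.12 for BEST3, 4.55 for ANO1 and 2.52 for A2ML1 with all libraries. Without replicate 3 they were 1.54, 2.39, 0.83 and 0.96. Replicates 1 and 2 alone lay above CTRL for ESPN and BEST3, while ANO1 held 1 and 2 reads in them and A2ML1 in replicate 2 was within the CTRL range.

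Erythroid markers too were highest in replicate 3 of the 6 h group. The 13 genes of the erythroid list, which include the globins, the band 3 anion exchanger SLC4A1 and the haem synthesis enzyme ALAS2, were detected in every library. Their summed level was 2416 to 4425 CPM in mRNA of CTRL and 5722, 4529 and 8381 CPM in replicates 1 to 3 after 6 h. Replicate 1 lay above replicate 2 there, as for BEST3 and A2ML1, while ESPN and ANO1 had the reverse order. At 18 h the sums were 16610, 11497 and 11174 CPM, and replicate 1, the highest, was also highest for ESPN, BEST3, ANO1 and A2ML1. ANO1, however, hardly differed between the 18 h libraries, at 6.75, 6.19 and 6.68 CPM. In the edgeR quasi-likelihood test, called where the log2 fold change lay beyond 0.6 and the adjusted p fell below 0.05, all 13 were higher at 18 h in both fractions, with SLC4A1 at a log2 fold change of 6.53 in mRNA. Of all 18095 genes tested in mRNA, 17.2% were higher and 13.2% lower at 18 h. The part of a shift in cell state in the rise of the 5 genes was not tested.

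**Figure D2:**
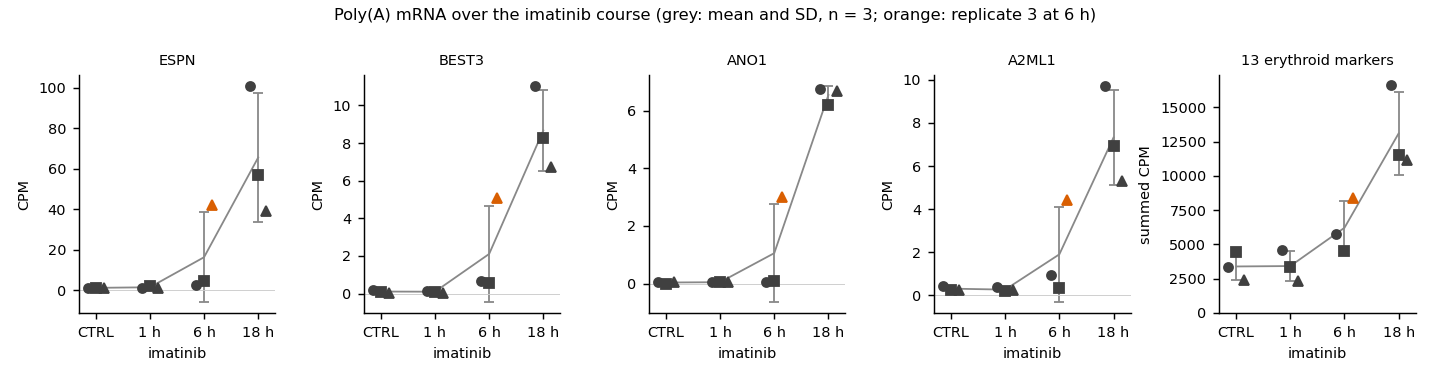
CPM in mRNA (linear axis) of 4 genes and the summed CPM of 13 erythroid markers, over CTRL and 1, 6 and 18 h of imatinib. Points are libraries, grey lines and bars the mean and SD (n = 3), and the orange triangle, replicate 3 at 6 h, lies above both other 6 h libraries in every panel.

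Of the tissues in which these genes are known, marker lists covered liver and epithelium with keratinocytes. Smooth muscle, interstitial cells of Cajal and hair cells had no list. In mRNA neither list rose as a group at 18 h. The liver list (7 genes) had a summed level of 0.11 to 0.489 CPM in mRNA at 18 h, against 0.168 to 0.436 CPM in CTRL, with 3 to 5 of the 7 at 0 in each 18 h library. In nuclear RNA HP (haptoglobin) alone of the liver list passed the filter, and it rose from 12 to 39 counts over the group. The list for epithelium and keratinocytes (10 genes) was already expressed in part in CTRL. It summed to 535 to 546 CPM in mRNA of CTRL and 354 to 409 CPM at 18 h. Of this list 5 passed the filter, none was higher in mRNA at 18 h and 3 were lower in both fractions: KRT8, KRT18 and KRT10. KRT19 was called higher in nuclear RNA at 18 h, by 0.65, and in mRNA at 6 h, by 0.70, and at 18 h in mRNA it was at 0.59, short of the fold needed. The keratinocyte genes KRT5, KRT14 and SPRR1B were at or near 0 throughout. The monocyte and macrophage list summed to at most 8.15 CPM in mRNA at 18 h. In the megakaryocyte list (9 genes) 2 of 5 tested were higher in mRNA at 18 h, TUBB1 and ITGB3, at log2 fold changes of 3.36 and 2.82. The rest of those tested were not called, with GP1BA at 1.03, ITGA2B at -0.02 and GP6 at -0.46. PF4 and PPBP had 0 counts in mRNA of CTRL and IM 18h.

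Nuclear RNA showed the same 4 genes and A2M as well. ESPN had 15, 29 and 41 counts in CTRL, 9, 27 and 49 after 1 h and 4591, 1780 and 1802 after 18 h of imatinib. Its mean went from 1.35 ± 0.70 to 132 ± 56 CPM, a log2 fold change of 6.57 (SE 0.59). BEST3 had 5, 2 and 11 counts in CTRL, 5, 10 and 9 after 1 h and 1256, 504 and 596 after 18 h. Its log2 fold change was 7.01 (SE 0.50). In both genes replicate 1 was highest, at 1.95 and 1.72 times the mean of the other 2 libraries, and the lowest 18 h library was still far above the highest CTRL library.

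ANO1 had no read in the 3 nuclear CTRL libraries, 1, 1 and 0 after 1 h and 498, 152 and 165 after 18 h. Against a floor of 3 counts over the CTRL group it was at least 294-fold higher. Its replicate 1 was at 21.1 CPM, 2.38 times the mean of replicates 2 and 3. A2ML1 had 8, 8 and 11 counts in CTRL, 5, 7 and 10 after 1 h and 220, 119 and 154 after 18 h, a log2 fold change of 4.22 (SE 0.30). For A2ML1 the library of replicate 1 did not stand apart, with 9.33 CPM against 9.52 CPM in replicate 3.

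A2M had 7, 5 and 0 counts in nuclear CTRL, 7, 6 and 3 after 1 h and 46, 30 and 13 after 18 h. The 18 h libraries lay above the CTRL libraries without overlap, but at low levels: 1.42 ± 0.58 against 0.178 ± 0.160 CPM, a log2 fold change of 2.87 (SE 0.53). Replicate 1 was at 1.70 times the mean of the other 2 libraries. Without replicate 1 at 18 h the nuclear log2 fold changes were 6.16 for ESPN, 6.69 for BEST3, 4.11 for A2ML1 and 2.55 for A2M, and the mean of ANO1 was 8.89 CPM. The rise of A2M was the smallest of the 5 in nuclear RNA, and in mRNA the groups overlapped.

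Among genes under 2 CPM in CTRL, ESPN had the highest CPM at 18 h of imatinib in both fractions, of 46290 such genes in mRNA and 45356 in nuclear RNA. BEST3 ranked 20 in mRNA and 2 in nuclear RNA, A2ML1 36 and 41, ANO1 53 and 16, and A2M 8016 and 1896. Per kilobase of exon, the level of ESPN in mRNA at 18 h was 9.43 ± 4.57 FPKM. BEST3 followed with 1.26 ± 0.32, ANO1 with 1.09 ± 0.05 and A2ML1 with 1.00 ± 0.30 FPKM, and these 3 lay within their spread of each other. In nuclear RNA at 18 h the order was ESPN at 19.0 ± 8.0, BEST3 at 5.60 ± 2.06, ANO1 at 2.15 ± 1.19, A2ML1 at 1.13 ± 0.28 and A2M at 0.222 ± 0.090 FPKM, where ANO1 and A2ML1 did not differ beyond their spread.

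The fractions were normalised apart, so a ratio between them is read only against other genes. Over 16660 genes that passed the filter in both fractions the median ratio of nuclear to mRNA CPM at 18 h was 1.27. BEST3 had 4.43, higher than 96.5% of genes. A2M had 8.51, but on 9 reads over the mRNA group, and it did not pass the filter in mRNA. Its ratio is therefore not ranked among these genes. ESPN and ANO1 had 2.01 and 1.98, and A2ML1 had 1.13, below the median. Among the members that passed the filter in both fractions, BEST3 thus leaned most to the nuclear libraries.

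JTE and KCl were looked at as treatments other than imatinib. These contrasts were tested, although the low CTRL level was part of the choice. The filter was run over all groups of a fraction at once. In mRNA 4 of the 5 genes passed it, ANO1, BEST3 and A2ML1 through their imatinib libraries. None of the 4 was called after JTE for 1, 6 or 18 h or after KCl for 1 or 3 h. In the same contrasts 0.851%, 13.2%, 5.39%, 5.45% and 11.9% of all 18095 genes were called by edgeR. No unadjusted p of the 4 genes was under 0.05, and DESeq2 called none. With few counts in CTRL, JTE and KCl, a missing call of ANO1, BEST3 or A2ML1 does not show a level without change.

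The counts show the reach of these tests. ESPN had 24, 34 and 17 counts after JTE for 1 h and 15, 75 and 23 after 18 h, where replicate 2 alone, at 4.56 CPM, stood far above the CTRL range of 1.04 to 1.21 CPM. Its log2 fold change at 18 h was 0.92 (SE 0.95, adjusted p = 0.631, edgeR). Without a filter on low counts ESPN was called there, the 1 member call after JTE in mRNA under that setting. A2ML1 had 13, 11 and 9 counts after JTE for 18 h, above its CTRL libraries in CPM without overlap, with a log2 fold change of 0.93 (SE 0.82, adjusted p = 0.549, edgeR). ANO1 never exceeded 2 reads in any JTE or KCl mRNA library.

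In nuclear RNA all 5 genes passed the filter, ANO1 and A2M through their imatinib libraries. In 10 tests of JTE and KCl for 1 h 1 call was made, where 8.52% and 23.8% of 21929 genes were called. The call was BEST3 after KCl. Its counts were 5, 2 and 11 in CTRL, 4, 5 and 6 after JTE and 40, 26 and 87 after KCl, so that the KCl libraries lay above both other groups. The means were 0.289 ± 0.240 and 2.50 ± 1.57 CPM, a log2 fold change of 3.14 (SE 0.61, adjusted p = 0.00101, edgeR). That level was below the 38.4 ± 14.1 CPM of BEST3 at 18 h of imatinib. The next lowest adjusted p was that of A2ML1 after KCl, with 14, 14 and 19 counts and a log2 fold change of 0.87 (SE 0.39, adjusted p = 0.106, edgeR).

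In mRNA BEST3 had 3, 9 and 14 counts after KCl for 1 h in libraries of unequal depth, 0.209 ± 0.104 against 0.108 ± 0.054 CPM in CTRL, a log2 fold change of 0.94 (SE 0.98, adjusted p = 0.858, edgeR). The KCl response in nuclear RNA exceeded that in mRNA by 2.08 on the log2 scale (SE 1.16), which did not pass the edgeR interaction test (adjusted p = 0.636), where 0.668% of genes did. A difference between the fractions is therefore not shown.

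Genes beside BEST3 moved with it after KCl in nuclear RNA. LRRC10, which lies between BEST3 and the downstream gene CCT2 on the strand of BEST3, had 0, 0 and 0 counts in CTRL and 16, 31 and 37 after KCl. It was at least 29.4-fold higher (adjusted p = 2.78e-06, edgeR) and was chosen after its values were seen. ENSG00000279551, annotated inside BEST3 on the same strand, went from 2 to 41 counts over the group, which was called (adjusted p = 0.000168, edgeR). CCT2, a chaperonin subunit on the opposite strand whose end lies 41790 bases from BEST3, was at 425 ± 25 and 448 ± 49 CPM and was not called. FRS2 and RAB3IP, also on the opposite strand, lay above CTRL without overlap. Their log2 fold changes were 0.56 and 0.48 (adjusted p = 0.00991 and 0.0178, edgeR), short of the fold needed for a call. LRRC10 had 0, 1 and 0 counts at 18 h of imatinib, when BEST3 was far higher than after KCl. No strand setting of the counting is given in the sources used here, so reads of BEST3 and reads running through from the opposite strand cannot be told apart, and their part in the KCl value was not tested.

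**Figure D3:**
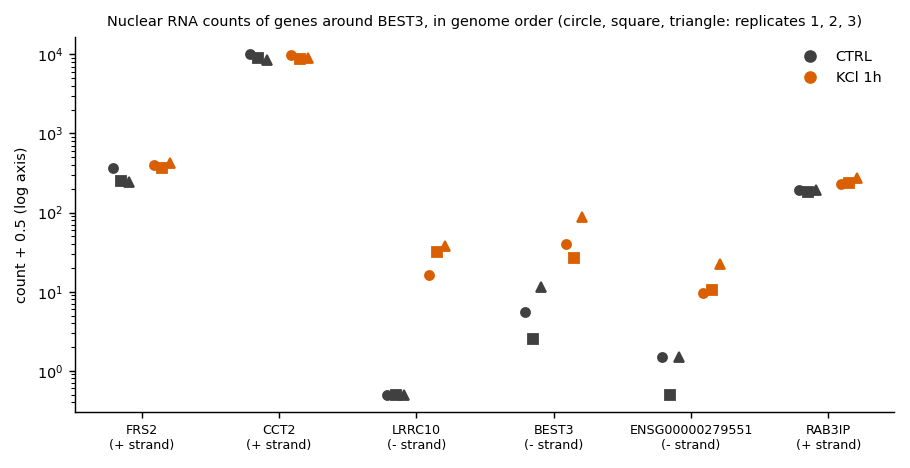
Nuclear RNA counts + 0.5 (log axis) of 6 genes around BEST3 in genome order, CTRL in dark grey and KCl 1h in orange, 1 point per library. LRRC10, BEST3 and ENSG00000279551 separate between the groups, from 0, 18 and 2 counts to 84, 153 and 41 over 3 libraries. FRS2 and RAB3IP separate by less, from 862 and 567 counts to 1191 and 745, and CCT2 does not.

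The nearest genes expressed in CTRL, at 1 CPM or more in mRNA, were taken 2 on each side of each gene, 19 in all since M6PR neighbours both A2ML1 and A2M. At 18 h of imatinib 5 of the 19 were higher and 4 lower in mRNA, and 3 were higher and 4 lower of the 17 that passed the filter in nuclear RNA, where 17.2% and 15.4% of all genes tested were higher and lower. Their median log2 fold changes were -0.10 in mRNA and -0.38 in nuclear RNA, beside 0.04 and 0.00 over all genes. No neighbour reached the fitted fold change of the member beside it, leaving out ANO1 in nuclear RNA and A2M in mRNA, which have no fitted value. The members were chosen for their rise from low counts and the neighbours for being expressed in CTRL. This difference therefore follows from the choice and is no result about the loci.

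RAB3IP, an exchange factor for Rab GTPases 39205 bases upstream of BEST3 on the other strand, rose most. It went from 9.59 ± 1.37 to 47.5 ± 1.7 CPM in mRNA, a log2 fold change of 2.27 (SE 0.18, adjusted p = 2.22e-09, edgeR), and by 2.05 in nuclear RNA. It was also called at 6 h in mRNA, at 1.20. CCND1, the cyclin D1 gene 423828 bases upstream of ANO1, fell by 2.56 in mRNA (SE 0.46, adjusted p = 0.000106, edgeR) and by 2.62 in nuclear RNA. FADD, the closest neighbour of any member at 13635 bases downstream of ANO1, was at 2.73 ± 0.46 and 2.59 ± 0.46 CPM and was not called.

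Around ESPN, the pre-rRNA processing kinase NOL9 fell by 0.68 in mRNA and 0.83 in nuclear RNA, and the orphan receptor GPR153 rose by 1.06 and 1.24, the first of which was lost without CTRL replicate 1 or IM 18h replicate 1. Around A2ML1, RIMKLB rose by 0.83 in mRNA and was not called in nuclear RNA at 0.49, and PHC1, a Polycomb subunit 26895 bases downstream, was not called in either. Beside A2M, KLRG1 rose by 1.28 in mRNA, from 1.12 ± 0.22 to 2.80 ± 0.31 CPM. It was not called in nuclear RNA at 0.54 (adjusted p = 0.0541, edgeR). MIR1244-3 and PTMAP4, called lower in mRNA, are multicopy sequences among which reads can be misplaced, and are uncertain. The PTMAP4 call in mRNA was lost without IM 18h replicate 3. That of MIR1244-3 was lost on leaving out replicate 1 or replicate 3, whether of CTRL or of IM 18h. In nuclear RNA PTMAP4 was called lower as well, at -1.05, and no setting ended that call. At 6 h in mRNA 1 of the 19 was higher and 1 lower, where 5.82% and 4.12% of all genes were. After KCl for 1 h in nuclear RNA 1 of 17 was called, where 23.8% of all genes tested were. It was PRANCR, an RNA gene 204557 bases upstream of BEST3, which fell by 0.96. At 18 h of imatinib PRANCR rose by 0.82 in mRNA and 0.90 in nuclear RNA, and the mRNA call was lost without CTRL replicate 3, without IM 18h replicate 1 and without the filter on low counts.

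**Figure D4:**
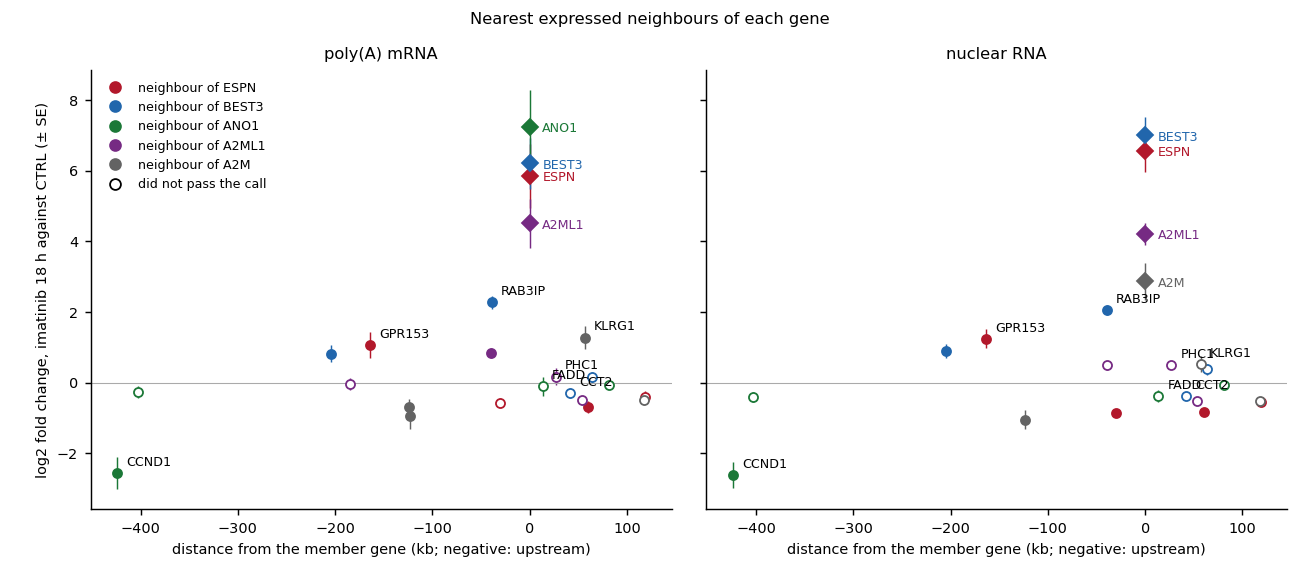
Log2 fold change at 18 h of imatinib (± SE) of the expressed neighbours against their distance in kb from the member gene (negative, upstream; circles, filled where called), with the members themselves as diamonds at 0. Members, chosen for their rise, lie between 2.87 and 7.25 and the neighbours between -2.62 and 2.27. ANO1 in nuclear RNA has no CTRL count and is not drawn.

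Silent genes close by were looked at in the same way, after the values were known. Whether a gene overlaps a member was judged on the gene models used for counting. GENCODE 44 starts ANO1 92395 bases earlier, so genes within its longer form were taken as nearby. Of the genes within 100000 bases that do not overlap a member and were under 1 CPM in CTRL, a few reached 1 CPM at 18 h: 1 of 9 around ANO1 in mRNA and 2 of 9 in nuclear RNA, 0 and 1 of 4 around BEST3, 1 of 6 and 1 of 4 around ESPN, 1 of 3 in both around A2ML1 and 0 of 8 in both around A2M. Over all such genes, wherever they lie, 2.45% did so in mRNA and 3.12% in nuclear RNA. HES2, a transcriptional repressor 117 bases from ESPN on the other strand, had 1, 5 and 4 counts in mRNA of CTRL and 39, 17 and 22 at 18 h, and 4, 6 and 6 against 87, 68 and 56 in nuclear RNA. The transcript ENSG00000255191, whose first annotated exon overlaps the start RefSeq gives for ANO1, had 0 counts in nuclear CTRL and 55, 33 and 36 at 18 h. It lies on the strand of ANO1 within the longer form of that gene. The part of ANO1 transcripts in its counts was not tested. ENSG00000247131, 14156 bases upstream of BEST3 on its strand, had 0 counts in nuclear CTRL and 144, 50 and 63 at 18 h. It reaches to 69738568, closer to RAB3IP, which starts at 69738681 on the other strand and was itself called higher. These values rose in the same libraries as the member beside them.

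Of the genes overlapping a member, some had more counts at 18 h and others did not. ENSG00000279551 inside BEST3 went from 1 to 50 counts in mRNA over the group and from 2 to 487 in nuclear RNA at 18 h. ENSG00000231868, on the other strand of ESPN, went from 1 to 76 and from 4 to 255, and TNFRSF25, a death receptor gene that shares 191 exonic bases with ESPN, from 0 to 25 and from 1 to 62. With no strand setting known, these counts and those of the member cannot be told apart. ANO1-AS1, which shares 646 exonic bases with ANO1, stayed at 0, and ENSG00000255143 inside ANO1 had 1 and 2 counts in nuclear RNA. Within A2ML1, A2ML1-AS1 had 1 and 1 and ENSG00000282022 had 6 and 7 counts in nuclear RNA of CTRL and IM 18h. A2M-AS1, with 397 exonic bases shared with A2M, went from 2 to 21. The pseudogene ESPNP had 12 counts over the 18 h mRNA libraries and 0.0794% of the 100-base windows of ESPN's exons occur in it. PZP, the A2M relative next to A2M, went from 5, 1 and 2 to 29, 11 and 3 counts in nuclear RNA, without passing the filter.

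Related genes were described from lists of the families and pathways of the 5 genes, 57 genes without the members. At 18 h of imatinib 14 rose and 6 fell of 43 tested in mRNA, and 14 rose and 7 fell of 46 in nuclear RNA, by edgeR. Over all genes 17.2% rose and 13.2% fell in mRNA, and 17.2% and 15.4% in nuclear RNA. The median log2 fold change was 0.14 in mRNA and 0.03 in nuclear RNA, beside 0.04 and 0.00 over all genes. At 6 h in mRNA 4 of 43 rose and 1 fell, where 5.82% and 4.12% of all genes did. Without replicate 3 there were 4 calls in place of 5.

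Of the 9 other anoctamins 6 passed the filter in mRNA, and ANO2, ANO3 and ANO4 had at most 7 counts over the CTRL libraries. ANO6, the lipid scramblase, was at 65.2 ± 8.2 CPM in mRNA of CTRL and 62.7 ± 8.7 CPM at 18 h and was not called. ANO9 rose from 4.04 ± 1.19 to 10.2 ± 2.7 CPM in mRNA, a log2 fold change of 1.30 (SE 0.26), and by 1.20 in nuclear RNA. ANO8, an anoctamin of the endoplasmic reticulum contact sites, rose by 0.89 and 0.63, the second of which was lost without IM 18h replicate 3, and ANO10 by 0.77 and 0.70. ANO2, the closest relative of ANO1, had 7 and 27 counts in mRNA and did not pass the filter there. In nuclear RNA it rose from 5 to 37 counts over the group, a log2 fold change of 2.86 (SE 0.63, adjusted p = 0.000735, edgeR), while ANO7 fell by 0.97.

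The other bestrophins did not follow BEST3. BEST1, the channel of the retinal pigment epithelium, was at 0.784 ± 0.462 and 1.43 ± 0.55 CPM in mRNA and was not called. BEST2 had 0 counts in mRNA of CTRL and IM 18h, and BEST4 had 2 and 3. Of the other chloride channels, the endosomal exchangers CLCN3 and CLCN4 rose in both fractions, by 1.01 and 2.14 in mRNA. LRRC8B and LRRC8C, subunits of the volume-regulated anion channel, fell by 1.14 and 0.87 in mRNA, and PACC1, the acid-activated channel, fell by 0.97. CFTR had 0 counts in mRNA and the CLCA channels at most 3 at 18 h.

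In the alpha-2-macroglobulin list 4 of 7 genes rose in mRNA and 3 of 8 in nuclear RNA, beside 17.2% of all genes in each fraction, and none fell. LRP1, the receptor that clears A2M with bound protease, rose by 3.18 in mRNA (SE 0.84, adjusted p = 0.00387, edgeR). Its level at 18 h was 13.3 CPM in replicate 1 and 3.47 and 4.47 CPM in replicates 2 and 3, and without replicate 1 its log2 fold change was 2.33 and still called. LRP1 went from 81 to 1271 counts over the group in nuclear RNA, where it was called as well (adjusted p = 8.95e-10, edgeR). The complement components C3 and C5, of the same protein superfamily, rose by 2.43 and 2.84 in mRNA and by 2.52 and 2.80 in nuclear RNA. CPAMD8 rose by 1.27 in mRNA and was not called in nuclear RNA at 0.49. CD109, a membrane-anchored member, was at 0.828 ± 0.285 and 0.623 ± 0.199 CPM and was not called, and LRPAP1, the chaperone of LRP1, was at 58.8 ± 8.1 and 40.5 ± 2.6 CPM, also without a call.

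Genes that work with espin moved both ways. MYO15A, the motor of stereocilia tips, rose by 2.37 in mRNA and 2.20 in nuclear RNA, from 0.130 ± 0.180 to 0.698 ± 0.155 CPM in mRNA. That call in mRNA was lost on leaving out replicate 1 or replicate 2, whether of CTRL or of IM 18h. WHRN (whirlin), its cargo, rose by 0.92 and 0.77, and the microvillar bundler VIL1 by 1.18 and 1.12, the first of which was lost on leaving out replicate 2 or replicate 3, whether of CTRL or of IM 18h. ESPNL, the espin-like gene, had 0 counts in mRNA of CTRL and 11 over the 18 h group, at least 3.73-fold higher. Its call was lost without any 1 CTRL library and without IM 18h replicate 1 or 3. ACTN4 and LCP1, actin cross-linkers abundant in K562, fell by 0.82 and 0.65 in mRNA, and fascin FSCN1 was at 327 ± 22 and 283 ± 29 CPM without a call.

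**Figure D5:**
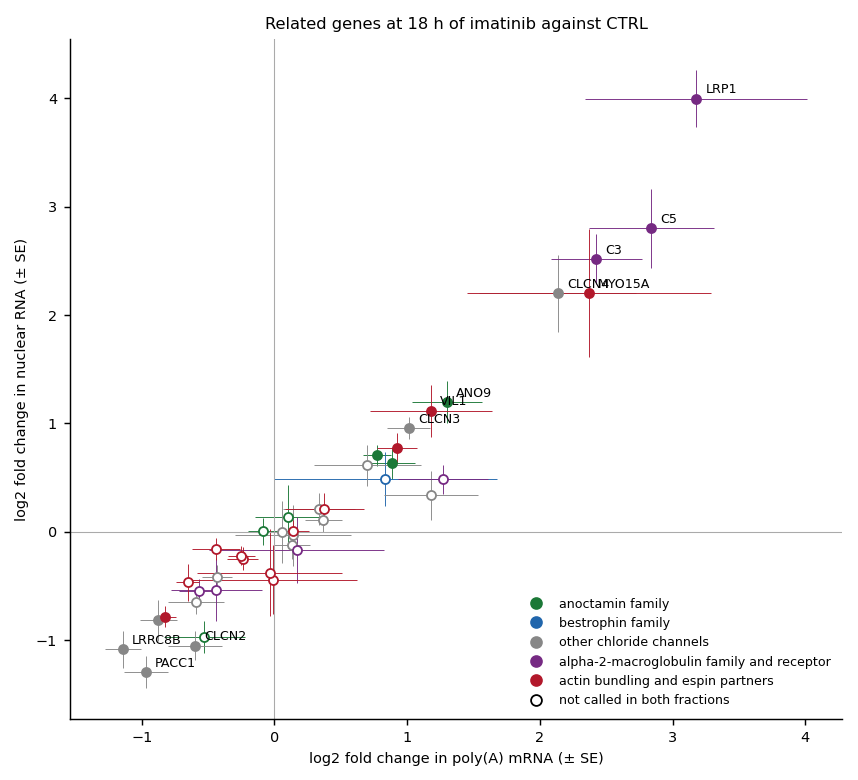
Log2 fold change (± SE) at 18 h of imatinib in mRNA (horizontal) against nuclear RNA (vertical) for the related genes with a value in both, coloured by list, filled where called in both fractions. LRP1, C5, C3, CLCN4 and MYO15A lie above 2 on both axes, and LRRC8B, PACC1 and CLCN2 are at the lower left.

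The patterns over the 14 group means, each centred on the CTRL of its fraction as log2(CPM + 0.5), were compared with 14968 genes. For ESPN the most alike was SLC4A1 (Pearson r = 0.997 over 14 groups), the erythrocyte anion exchanger, followed by TMCC3 and REPS2. For A2ML1 they were MGST3, EPB42 (r = 0.992), a red cell membrane protein, and VPS13D. For ANO1 they were KLHDC8A (r = 0.996), NOX5 and HLA-V, and for BEST3 BTNL10P (r = 0.989), RBBP8NL and CACNA1F. The 4 genes had r between 0.946 and 0.988 with each other, and A2M between 0.626 and 0.774 with them. Since they were chosen for a rise after imatinib, this likeness follows from the choice and is no result about the genes. For pairs of the 4, between 13 and 466 of the genes compared had a higher r. The genes most like A2M were CLEC2D (r = 0.947), CNIH3 and MT-RNR2, of which CLEC2D rose by 2.40 in nuclear RNA on this scale and by 0.18 in mRNA at 18 h. These correlations rest on groups that share their CTRL libraries and mostly on the single contrast at 18 h.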

How the data were processed

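Poly(A) mRNA and nuclear RNA of K562 cells were sequenced in 42 libraries. The authors trimmed and deduplicated reads with FASTP, aligned unique pairs to GRCh38.p14 with STAR (introns up to 10000 bases; ANO1 and BEST3 each hold 1 longer gap between exons) and deposited raw read-pair counts per gene from featureCounts over exons. No strand setting is given in the sources used here. From these counts, CPM was computed on library totals, and FPKM as CPM per kilobase of exon.

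Each fraction was fitted in edgeR 4.0.16 (R 4.3.3; TMM, filterByExpr, robust quasi-likelihood, 1 term per group). A gene was called where its log2 fold change lay beyond 0.6 and its p, adjusted by Benjamini-Hochberg, fell below 0.05. DESeq2 1.42.0 was an alternative. The script was tested on simulated data. The members and lists were chosen with earlier results of these data known. Named genes were the members, neighbours, overlapping genes and copies, the 3 called genes of largest change per list and fraction, and the 3 most alike in pattern. Other genes named beside them, ANO6, BEST1, BEST2, BEST4, CFTR, CD109, LRPAP1, FSCN1 and nearby silent genes among them, were picked after their values were seen.

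The study describes the replicates as independent biological experiments. No 2 replicate libraries of the same group matched within sampling noise (chi-square per gene 2.37 to 62.5). Same-numbered nuclear libraries deviated together (r from 0.234 to 0.891), so the numbers pair them. In mRNA they did not by the deposited column names (r from -0.367 to 0.877). A library table of the study numbers CTRL replicates 1 and 2 the other way round, and with these 2 exchanged r ran from 0.0545 to 0.877, above 0.1 for every pair in all mRNA groups but JTE 18h. The deposited names were kept, and the exchanged block was added after seeing the data. The sequences before the BEST3 start and before the ANO1 start of the count tables are not reported here.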

Additional observations from a re-analysis of the deposited data

How the results depend on the processing

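Beyond the libraries named above, 108 alternative values of the main counts stayed within 1.5 times their value and 7 did not, and of the other values 187 stayed within their spread or kept their call and 40 moved. No called value changed sign. After 1 h of imatinib, where the members hardly differed from CTRL, leaving out 1 library turned the sign of fold changes in mRNA (ANO1 from -0.19 to 0.72, BEST3 from -0.61 to 0.24, ESPN from -0.11 to 0.53, A2ML1 from -0.56 to 0.09) and in nuclear RNA (ESPN from -0.62 to 0.45, A2M from -0.07 to 1.07). Without a filter on low counts 1 member was called after JTE in mRNA in place of 0, and 9 related genes at 6 h of imatinib in place of 5, with 11 without a fold threshold. With neighbours at 10 CPM or more in CTRL 5 were called in mRNA in place of 9, and without a fold threshold 13 in nuclear RNA in place of 7. Leaving out single libraries gave 0 member calls for JTE and for KCl in mRNA, 1 in nuclear RNA, 4 to 8 related genes at 6 h (8 without IM 6h replicate 1), 17 to 19 and 20 to 22 at 18 h in mRNA and nuclear RNA, and 6 to 10 and 7 to 10 neighbours. BEST3 after KCl in nuclear RNA ranged from 2.54 to 3.93.

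With the replicate block 1 member was called in nuclear RNA and 0 in mRNA, as without it, and BEST3 after KCl was at 3.14. With CTRL replicates 1 and 2 exchanged in the mRNA block 0 members were called after JTE and KCl, and 9 related genes at 6 h in place of 5. That block moved calls over all genes from 154 to 280 after JTE for 1 h and from 975 to 1575 after 18 h. Over all genes in mRNA after JTE for 1 h, calls went from 154 to 258 with the block, 237 without the filter, 5 with only the compared groups, and 62 without JTE 1h replicate 3. After KCl for 1 h they went from 986 to 465 with only the compared groups in mRNA, and from 5227 to 8022 without the filter in nuclear RNA. After JTE for 18 h they fell from 975 to 577 without replicate 3. The causes were not tested. In CTRL, where the members hold few counts, depth limits every fold change.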
